A study of Caenorhabditis elegans with 2 samples.

Results

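RBR-2-GFP was examined at 10 genes of insulin signalling and lifespan control in Caenorhabditis elegans, namely daf-2, age-1, daf-18, akt-1, akt-2, daf-16, skn-1, hsf-1, sir-2.1 and aak-2. They are 10 of the 19973 protein-coding genes on the nuclear chromosomes of the Ensembl WBcel235 annotation. For each gene, every deposited region was taken whose summit lay inside the gene or up to 2 kb upstream of the 5′ end of any of its transcripts. The chromatin came from whole L4 hermaphrodites (strain OP195) collected 56 hours after synchronisation as starved L1 larvae. OP195 is a transgenic line in which a C-terminal tag of GFP and FLAG is fused to RBR-2, and both samples are of this line. RBR-2 belongs to the KDM5 family, enzymes that remove methyl groups from lysine 4 of histone H3. Sonicated chromatin was immunoprecipitated and sequenced (ChIP-seq) in 2 biological replicates of this 1 group, so no conditions were compared. The description names an anti-GFP antibody and the antibody field reads rbr-2, and the labels do not settle which was used. Whether the tagged gene replaced the native copy, and the promoter that drives it, are not given in the sources used here.

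In worms, insulin-like peptides act through the receptor DAF-2 and the phosphoinositide 3-kinase AGE-1, which activates the kinases AKT-1 and AKT-2. These kinases phosphorylate the FOXO transcription factor DAF-16 and hold it in the cytoplasm, and the phosphatase DAF-18 opposes AGE-1. When the pathway is quiet, DAF-16 enters nuclei and turns on genes for stress resistance and long life, while SKN-1, HSF-1, the sirtuin SIR-2.1 and the AMP-activated kinase AAK-2 act beside it. H3K4 methylation enzymes and RBR-2 have themselves been studied as regulators of worm lifespan.

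The deposited data are 4 lists of regions on build ce11. The optimal list (3442 regions) holds those that passed the irreproducible discovery rate procedure, and it was identical to the 3442 strongest of the 30000 regions in the pooled list. The lists of replicate 1 (26742 regions) and replicate 2 (28724 regions), like the pooled list, hold peaks together with background. Signal is the value the authors' caller gave each region. It was ranked only within its list, where rank 1 is the strongest. Optimal signals ran from 65.2 to 4663.9 with a median of 114.2. Peak lists carry no read counts, so the depth behind a signal is unknown.

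The sequences at 7 of the optimal summits are shown because they include the pair with the highest signal, the pair nearest to a transcript start and the other regions of the receptor and kinase genes. Each is read from the RefSeq WBcel235 assembly (build ce11) along the strand of its gene, 75 bases to either side of the summit, with annotated UTR bases left out. Capitals mark matches to 3 motifs that are described further on.
aak-2, first intron, chrX:16796961-16797111, plus strand: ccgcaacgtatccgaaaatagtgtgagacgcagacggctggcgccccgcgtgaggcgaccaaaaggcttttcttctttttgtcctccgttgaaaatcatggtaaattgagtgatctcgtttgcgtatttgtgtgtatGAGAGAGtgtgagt
aak-2, before the internal start, chrX:16799213-16799363, plus strand: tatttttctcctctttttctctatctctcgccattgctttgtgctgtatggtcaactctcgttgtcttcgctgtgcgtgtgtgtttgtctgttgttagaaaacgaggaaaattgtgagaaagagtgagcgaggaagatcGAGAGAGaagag
akt-2, upstream, chrX:14146869-14147019, plus strand: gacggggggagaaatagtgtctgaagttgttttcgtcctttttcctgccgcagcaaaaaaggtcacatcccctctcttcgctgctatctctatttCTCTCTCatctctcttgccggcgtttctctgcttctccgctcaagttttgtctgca
akt-1, distal upstream, chrV:10247078-10247228, plus strand: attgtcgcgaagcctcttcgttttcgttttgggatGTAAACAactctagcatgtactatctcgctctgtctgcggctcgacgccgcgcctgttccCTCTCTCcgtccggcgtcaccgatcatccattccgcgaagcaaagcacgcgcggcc
akt-1, proximal upstream, chrV:10248653-10248803, plus strand: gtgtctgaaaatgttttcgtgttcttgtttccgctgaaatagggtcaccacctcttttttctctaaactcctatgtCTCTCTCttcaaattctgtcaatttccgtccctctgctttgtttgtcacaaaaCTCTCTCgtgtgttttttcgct
daf-2, first intron, chrIII:3036166-3036316, minus strand: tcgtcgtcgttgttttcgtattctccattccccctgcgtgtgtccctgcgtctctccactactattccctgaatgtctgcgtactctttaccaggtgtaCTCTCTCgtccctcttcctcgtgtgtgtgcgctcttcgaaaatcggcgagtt
sir-2.1, upstream, chrIV:10366241-10366332, minus strand: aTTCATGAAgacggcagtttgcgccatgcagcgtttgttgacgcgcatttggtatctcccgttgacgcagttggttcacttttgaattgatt

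Optimal regions lay at 7 of the 10 genes: daf-2, akt-1, akt-2, daf-16, skn-1, sir-2.1 and aak-2. By the same rule, 17.4% of all nuclear protein-coding genes had one. The 10 genes were chosen with earlier results of these data known. No optimal region was assigned to age-1, daf-18 or hsf-1. The genes of this set are long, with a median of 9.52 kb for the gene and its upstream windows against 4.03 kb over all genes, and longer genes more often held a region. Among genes with a window at least as long as that of sir-2.1, the shortest here (4.91 kb), the share was 25.6%, and among those at or above the median of the set it was 34%. In all, the 7 genes held 12 optimal regions, with 3 at daf-16 and 2 each at akt-1, skn-1 and aak-2. More than 1 region was found at 4 of the 10 genes, against 2.62% of all genes and 5.41% of those with a window of at least 4.91 kb.

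**Figure D1:**
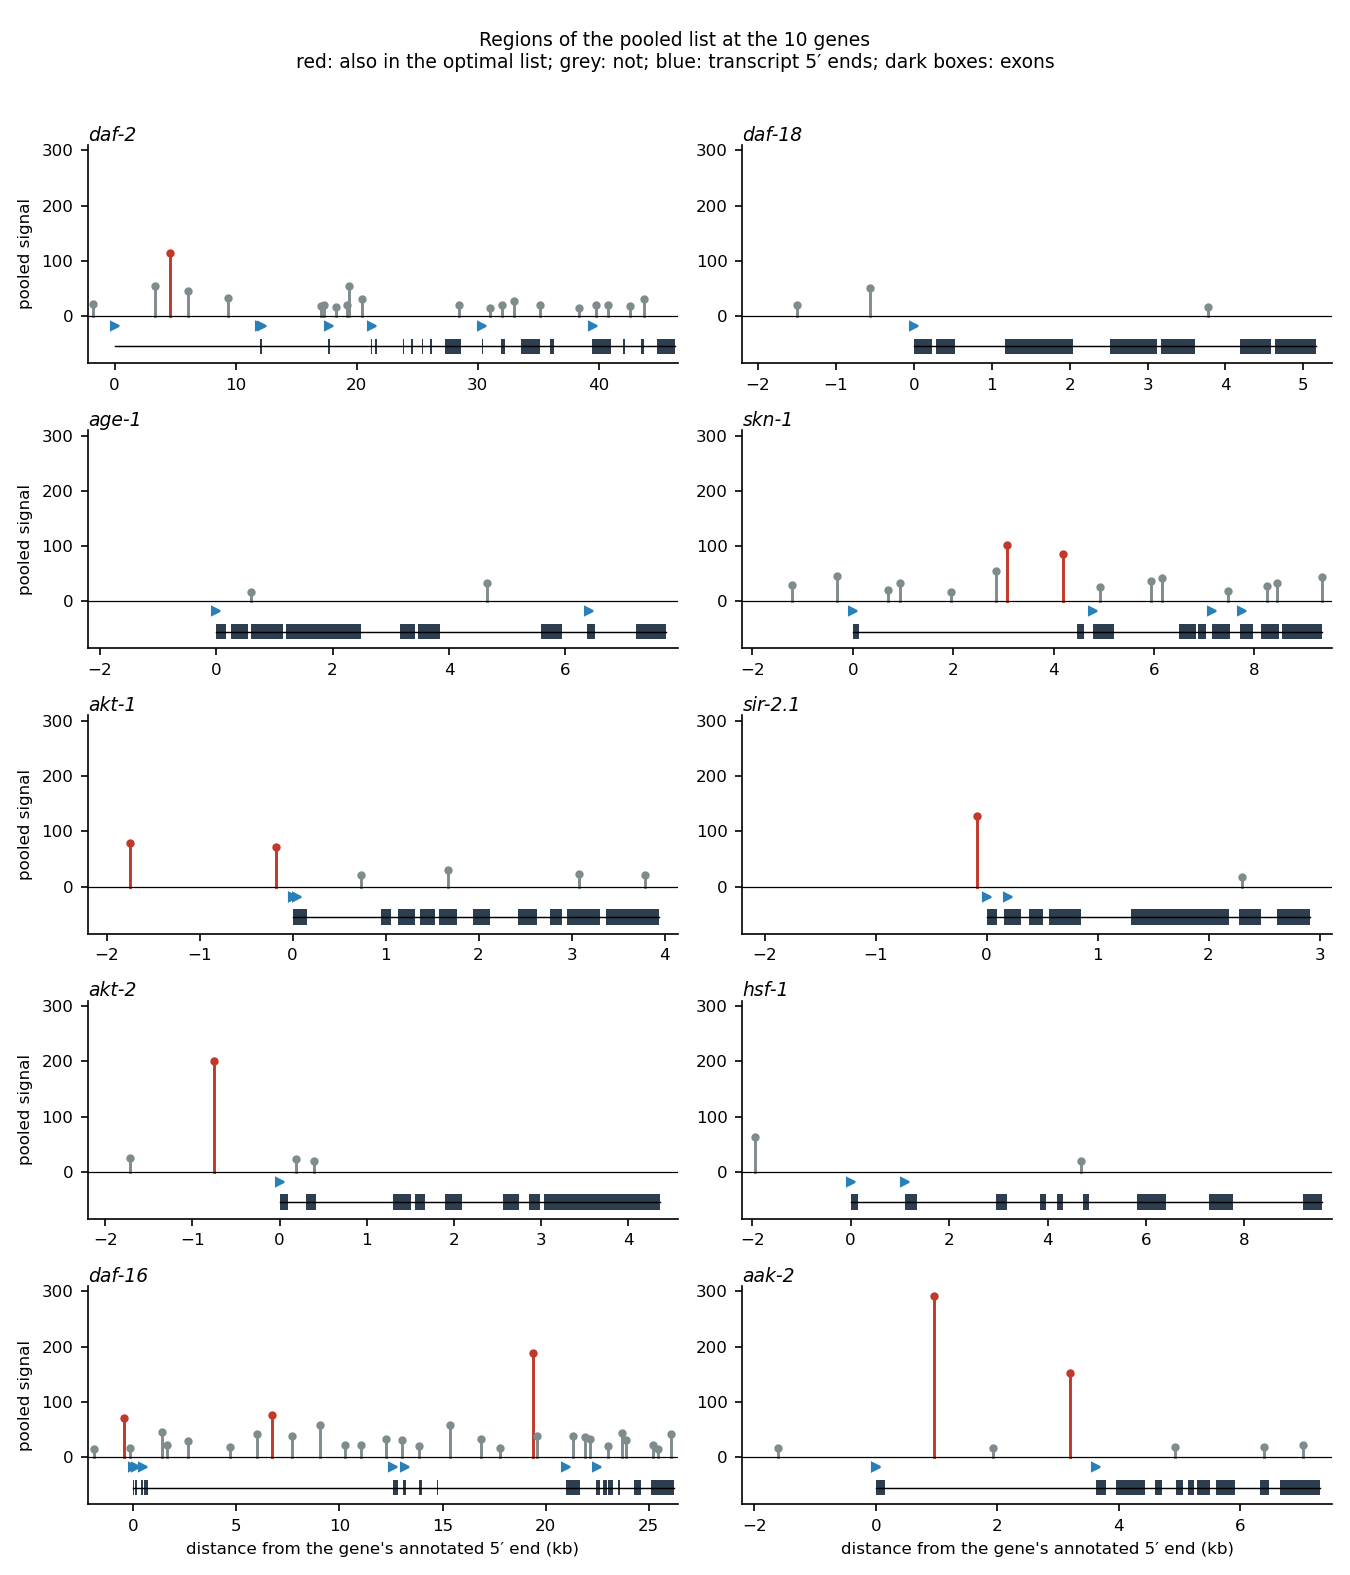
Each panel is 1 gene, drawn 5′ to 3′, with the distance from its annotated 5′ end in kb on the horizontal axis and the pooled signal on the vertical axis. Stems are summits of the pooled list, red where the region is also in the optimal list, with transcript 5′ ends as blue arrows and exons as dark boxes. The 2 tallest stems stand in the first intron of aak-2 (290.8) and upstream of akt-2 (201.2), and age-1, daf-18 and hsf-1 have no red stem.

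The receptor gene daf-2 (WBGene00000898, chromosome III, 2994514 to 3040846, minus strand) carried 1 optimal region in 46.3 kb. It spanned 3036021 to 3036460, with its summit in the first intron, 4605 bp downstream of the 5′ end of the gene and inside the long noncoding RNA gene linc-143 on the same strand. Its signal was 114.4, rank 1711, which is close to the median of the optimal list. Replicate 1 gave this site a signal of 46.2 (rank 2167) and replicate 2 a signal of 68.5 (rank 1457), so it was among the 3442 strongest regions of both. At the 5′ end of the longest daf-2 transcript itself the lists held little: the nearest pooled summit was 1819 bp away, inside the neighbouring gene cutl-25.

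The next step of the cascade had no optimal region. At age-1 (WBGene00000090, chromosome II, 11519328 to 11527054), which encodes the catalytic subunit of the kinase, the pooled list held only 2 regions, the stronger with a signal of 33.9 (rank 8618). It was inside age-1 and also inside the gene Y62F5A.10, and it ranked 22484 in replicate 1 and 11444 in replicate 2. At daf-18 (WBGene00000913, chromosome IV, 420011 to 425177), the gene of the opposing phosphatase, the strongest of 3 pooled regions had a signal of 50.7 (rank 4693). That summit lay in the 990 bp between daf-18 and garr-1, 559 bp from the daf-18 start and 432 bp from that of garr-1, so it could belong to either gene. It ranked 6560 in replicate 1 and 4874 in replicate 2, outside the strongest 3442 of each.

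Both AKT kinase genes had optimal regions upstream, at different distances and strengths. At akt-2 (WBGene00000103, chromosome X, 14147700 to 14152070), the single region spanned 14146883 to 14147019, only 137 bp, with its summit 756 bp upstream of the start. Its signal was 201.2 (rank 687), and the replicates placed it at rank 622 (signal 100.8) and rank 794 (signal 99.4). At akt-1 (WBGene00000102, chromosome V, 10248905 to 10252845), one region (10248508 to 10248947) peaked 177 bp upstream of the start and the other (10246933 to 10247372) 1752 bp upstream, inside the noncoding RNA gene C12D8.25. The proximal region had a signal of 72.3 (rank 3009), with rank 2445 in replicate 1 and rank 3818 in replicate 2. The distal region had a signal of 78.7 (rank 2719), but the replicates disagreed about it: replicate 1 gave 20.0 (rank 7018) and replicate 2 gave 55.3 (rank 1981). Each akt-1 region was therefore among the strongest 3442 of 1 replicate only.

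The FOXO gene daf-16 (WBGene00000912, chromosome I, 10750498 to 10776703, plus strand) spans 26.2 kb, has 7 distinct annotated transcript starts and held 3 optimal regions. The strongest (10769784 to 10770061) lay in an intron, 1614 bp upstream of the start of transcript R13H8.1a.1 and 19396 bp from the start of the gene. It had a signal of 188.8 (rank 763), with rank 874 in replicate 1 (signal 83.4) and rank 705 in replicate 2 (signal 106.2). A second intronic region (10757026 to 10757465) had a signal of 77.1 (rank 2800) and stood 5857 bp from any downstream start, with ranks of 3265 and 3162. The third (10749837 to 10750276) was the one before the first start, 441 bp upstream of transcript R13H8.1h.1, inside noncoding RNA genes annotated on both strands. With a signal of 70.7 (rank 3111) it was the weakest of the 12, and it was among the strongest of replicate 2 (rank 2703) but not of replicate 1 (rank 4865). The signal at daf-16 was thus highest deep in the gene and not at its first start.

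The other transcription factor genes differed from each other. At skn-1 (WBGene00004804, chromosome IV, 5651039 to 5660384, minus strand), which encodes the worm relative of the oxidative stress factor Nrf, both optimal regions lay in the first intron of the longest transcript, upstream of the start of transcript T19E7.2c.1. One (5657099 to 5657538) was 1714 bp before that start, inside the noncoding RNA gene T19E7.26 on the opposite strand. Its signal was 102.3 (rank 1985), with rank 1627 in replicate 1 and rank 2992 in replicate 2. The other (5655971 to 5656410) was 586 bp before the same start. It had a signal of 85.9 (rank 2433), rank 4923 in replicate 1 and rank 2008 in replicate 2. The start of the longest transcript had only a weaker pooled region of signal 45.5 (rank 5458), 308 bp upstream. At hsf-1 (WBGene00002004, chromosome I, 11953507 to 11963085), the heat shock factor gene, the strongest region lay 1949 bp upstream and just missed the optimal list, with a signal of 62.5 (rank 3603) against 65.2 for the weakest optimal region. It ranked 3547 in replicate 1 and 4894 in replicate 2, and the only other pooled region of the hsf-1 window had a signal of 20.5.

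The sirtuin gene sir-2.1 (WBGene00004800, chromosome IV, 10363318 to 10366229, minus strand) had the optimal region nearest to a start, with its summit 87 bp upstream (10366096 to 10366535). Its signal was 128.3 (rank 1451), and the replicates were close, at rank 1423 (signal 62.2) and rank 1636 (signal 63.2). The gene upstream on the same strand, pges-2, ends 17 bp from this summit, and 103 bp separate the genes. Close genes on one strand can form an operon in worms, and the annotation used here does not mark operons. No region of any of the 4 lists had a summit within 500 bp of the pges-2 start, 1474 bp away.

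The AMP-activated kinase gene aak-2 (WBGene00020142, chromosome X, 16796087 to 16803398, plus strand) had the region of highest signal among the 12, and a further one in the same intron. Its first region (16796897 to 16797179) peaked in the first intron, 949 bp from the first start of the gene, with a signal of 290.8 (rank 322). Both replicates put it high, at rank 352 (signal 131.8) and rank 327 (signal 155.3). The second (16799068 to 16799507) lay 419 bp upstream of the internal start of transcript T01C8.1c.1, with a signal of 152.5 (rank 1102), rank 1601 in replicate 1 and rank 941 in replicate 2. By its highest pooled signal aak-2 stood above 98.1% of all protein-coding genes, akt-2 above 96.0% and daf-16 above 95.5%. The lowest places were those of age-1 (69.1%) and daf-18 (78.5%). Genes without a pooled region count as lower here, and 56.3% of all genes (11241) had one. Of those 11241 genes, 6161 stood above age-1 and 4285 above daf-18. A long window gives more chances of a high value. The genes aak-2 and akt-2 are on X, where 18.1% of genes had an optimal region by the same rule, against 17.3% on the autosomes. The median optimal signal was 123.2 on X and 111.6 on the autosomes.

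**Figure D2:**
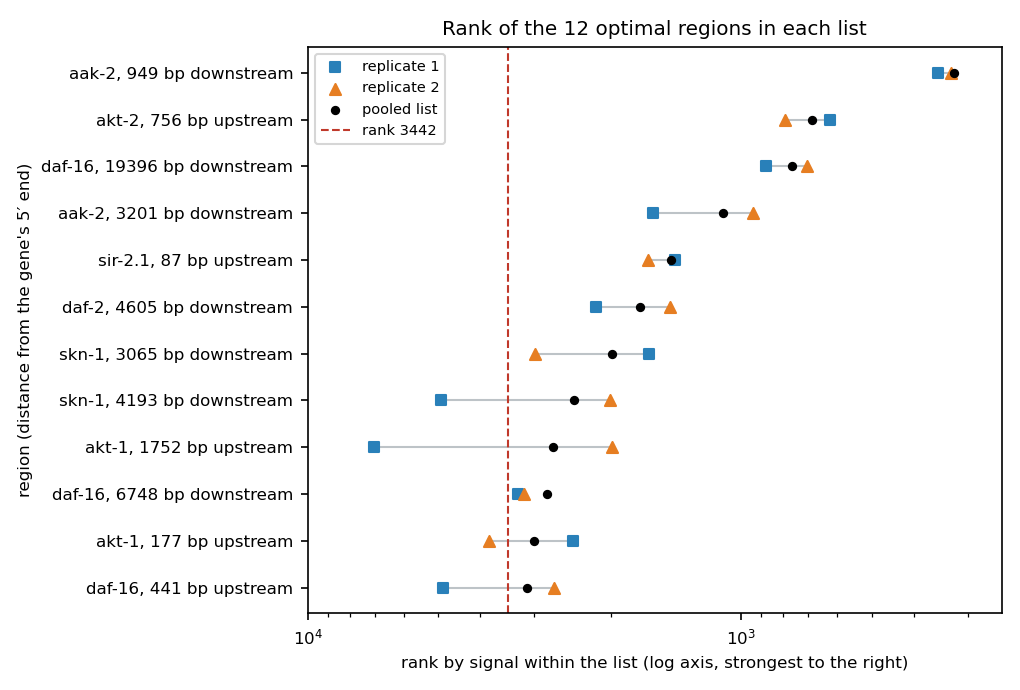
The 12 optimal regions are ordered by pooled rank, with the rank within each list on a log axis and the strongest to the right. Blue squares are replicate 1, orange triangles replicate 2 and black dots the pooled list. The dashed line is rank 3442, and 4 regions have 1 replicate to its left.

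All 12 regions had a summit within 200 bp in both replicate lists, as did 3397 of the 3423 nuclear optimal regions. Of the 12, 8 were among the strongest 3442 regions of both replicates and 4 of only 1. Of the 3423 nuclear optimal regions, 76.6% were among the strongest of both. The larger of the replicate ranks was a median of 1.52 times the smaller, against 1.34 over nuclear optimal regions matched in both lists. Agreement was closest at the daf-16 region of rank 2800 (1.03 times) and at the first aak-2 region (1.08 times), and poorest at the distal akt-1 region (3.54 times). The optimal list was made from the replicate lists, so these ranks are a description and not an independent check. With 2 replicates and no counts, no test of a single region was possible.

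By position, 7 of the 12 regions lay in introns of their gene, 5 upstream of it and 0 in coding exons. Introns and coding exons were not counted apart over all genes, so these counts have no like share. Within 500 bp of a transcript 5′ end there were 4 regions, at sir-2.1 (87 bp), akt-1 (177 bp), aak-2 (419 bp) and daf-16 (441 bp), all of them upstream of that end. These 4 of 10 genes compare with 10.3% of all genes. Every transcript start counted here, and a gene with many starts has more chances. With only the start of each gene, 3 genes were left, against 9.46% of all genes, because aak-2 had its summit near an internal start. Over all genes, 4190 pairs of an optimal summit and a gene were found by the rule. In 25.9% the summit was inside the gene and in 50.6% within 500 bp of a transcript 5′ end. These shares were not matched for length, and the 10 genes have longer windows (median 9.52 kb against 4.03 kb over all genes). Many worm transcripts are trans-spliced, so an annotated 5′ end need not be the site where transcription begins. Whole animals were sampled, and binding in few cells cannot be told apart from weak binding in many.

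Below the optimal list, the pooled list added 80 regions and reached all 10 genes, against 56.3% of all genes and 74.1% of those with a window of at least 4.91 kb. Each of the 10 also had a region in the full lists of replicate 1, where 58.2% of all genes had one, and replicate 2, where 58.6% had one. Within 500 bp of a transcript start, 7 of the 10 had a pooled summit, against 36.1% of all genes. These lists include background. The 10 genes held 92 pooled regions in all, 30 of them at daf-16, 21 at daf-2 and 15 at skn-1. Summed over their windows that is 0.644 regions per kb, compared with 0.307 for all genes. The median per gene was 0.531 for the 10 and 0.201 for all genes, close to the values of hsf-1 and age-1. The density ran from 0.173 per kb at hsf-1 and 0.206 at age-1 to 1.06 at daf-16 and 1.32 at skn-1. The gene with the highest signal, aak-2, had 0.752 regions per kb, and 5 of its 7 regions were at or below 21.2. The strongest region below the optimal limit ran from a signal of 18.2 at sir-2.1 to 62.5 at hsf-1. Next to hsf-1 stood daf-16 (58.9), skn-1 (55.5), daf-2 (54.8) and daf-18 (50.7). This value was not taken over all genes, and a long window gives more chances of a high one.

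**Figure D3:**
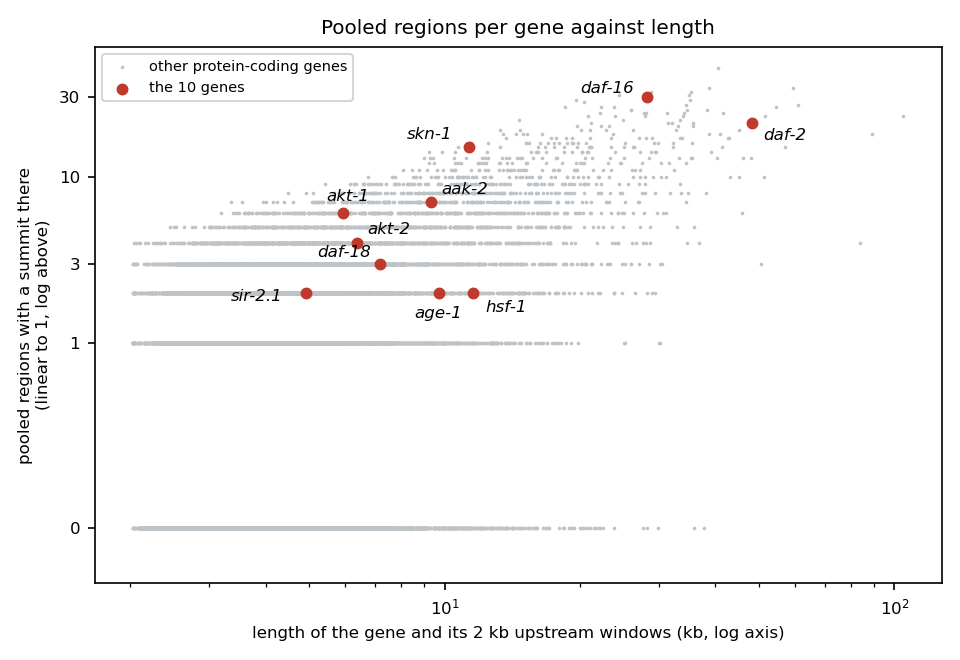
Points are protein-coding genes, with the length of the gene and its upstream windows in kb (log axis) across and the number of pooled summits there upwards (linear to 1 and log above). The 10 genes are red, and skn-1 (15 regions in 11.3 kb) and daf-16 (30 in 28.2 kb) lie near the upper edge for their length. Among the 10, hsf-1 (2 in 11.6 kb) and age-1 (2 in 9.73 kb) have the fewest regions per kb.

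The 200 bp around each optimal summit were searched on both strands for 3 motifs: GTAAACA, the core bound by DAF-16, TTCNNGAA, from the heat shock element, and the repeat GAGAGAG. Overlapping matches were counted, and GAGAGAG reads CTCTCTC on the other strand. The repeat was present at 9 of the 12 summits: both regions of aak-2 and of akt-1, the single regions of akt-2 and daf-2, both intronic regions of daf-16 and the skn-1 region of rank 2433. It was found at 23.3% of the 3423 nuclear optimal summits. The share was 17.7% for optimal summits within 500 bp of a protein-coding transcript start. For optimal summits elsewhere it was 25.3% inside genes and 30.5% between genes. The repeat was at 6.57% of pooled regions outside the optimal list, and at 10 of the 80 such regions of the 10 genes (12.5%). At the strongest 3442 regions of each replicate, 7 of 11 member regions had it in replicate 1, against 22.7% of that replicate's nuclear regions, and 8 of 12 in replicate 2, against 22.5%. These are largely the same sites in the same genome sequence, so the replicate counts are not an independent check. Its centre lay from 4 bp (proximal akt-1) to 96 bp (skn-1) from the summit. At the strongest daf-16 region, GAGAGAG began at 19 positions, nearly all of them in overlapping runs on one strand, while the other 8 windows held 1 or 2.

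The DAF-16 core was found at 2 summits, the distal akt-1 region, where it is the first capital stretch printed above, and the daf-16 region before the first start. Over all nuclear optimal summits the share was 3.86%. The heat shock core was found at sir-2.1 and at the skn-1 region of rank 2433, and at 7.22% of all. A match is only a run of letters, and binding of these factors was not measured here. The GC content of the 12 windows ran from 37.5% to 54.0%, with a median of 47.2% against 45.5% over all nuclear optimal windows.

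A further 98 genes of these pathways were listed by role, and 95 matched the annotation. An optimal summit lay in or within 2 kb upstream of 33 of them, against 17.4% of all genes, and within 500 bp of a transcript start of 21, against 10.3%. The lists were chosen with earlier results of these data known, so these counts are a description only. The median window of the matched genes was 4.69 kb, against 4.03 kb over all genes. The lists differed in what they held. None of 11 insulin-like peptide genes had an optimal region and 2 had a pooled one; these are short genes with a median window of 2.77 kb. Among 7 other components between receptor and DAF-16, with a median window of 8.64 kb, 4 had an optimal region, but only par-5, a 14-3-3 protein gene, had it within 500 bp of a start (signal 150.3, rank 1125), with a start of M117.3 also within 500 bp. Outside the rule for naming genes, and chosen after its values were seen, pdk-1, the kinase that activates AKT, had 2 regions, one in an intron (signal 246.5, rank 459) and one 1404 bp upstream (231.4, rank 528). The other 14-3-3 gene, ftt-2, chosen in the same way, had a region 668 bp upstream (485.6, rank 92).

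Cofactors and regulators of DAF-16 had an optimal region at 6 of 13 genes and near a start at 2, imb-2 (signal 126.6), a nuclear import receptor gene, and swsn-1 (72.2), a subunit gene of the SWI/SNF chromatin remodeller. Genes named as DAF-16 targets had one at 3 of 16, close to the share over all genes. Near a start these were hsp-16.2 and hsp-16.41, small heat shock protein genes that share 1 region (signal 132.2, rank 1396), its summit 4 bp downstream of the hsp-16.41 start and 225 bp upstream of that of hsp-16.2. The SKN-1 branch had 2 of 12, wdr-23, whose product holds SKN-1 down (signal 161.1, rank 1000), and xrep-4 (93.9). The HSF-1 branch had 5 of 8, and the strongest near a start were hsp-90 (608.2, rank 67), hsp-1 (603.1, rank 68) and hsp-110 (399.8, rank 162), all chaperone genes. Starts of C47E8.4 and rpn-3 also lay within 500 bp of the hsp-90 and hsp-110 summits. Of the other sirtuin genes, 1 of 3 had a region, sir-2.2 (93.2).

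Subunits and partners of AMP-activated kinase had an optimal region at 5 of 14 genes. Near a start these were aakg-5, a gamma subunit gene (signal 160.9, rank 1003), crh-1, which encodes the CREB factor (136.9), and flcn-1, the folliculin gene (136.5). The TOR branch, which couples nutrients to growth, had an optimal region at 7 of 11 genes. Its genes have the longest median window of the 9 lists, 9.27 kb. Its strongest near a start was rheb-1, encoding the GTPase that activates TOR (275.0, rank 366, with a start of spk-1 also within 500 bp). Next were hlh-30, encoding the worm TFEB (166.1), and ife-2, a translation initiation factor gene (121.4). The lists are small and were not tested.

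**Figure D4:**
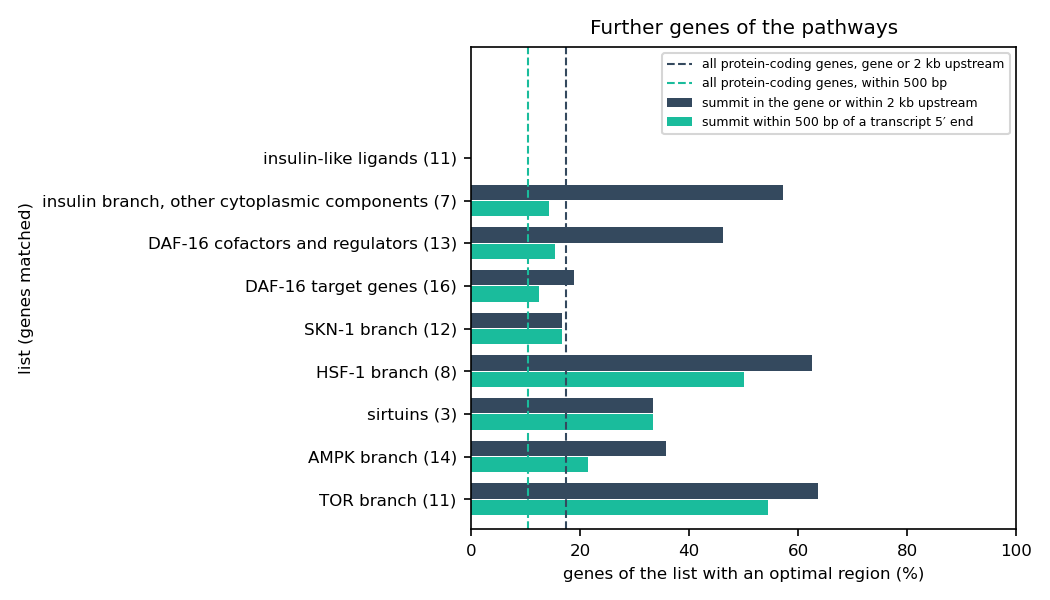
Bars give the percentage of each list's genes that had an optimal region in the gene or within 2 kb upstream (dark) or within 500 bp of a transcript 5′ end (green), with the number of matched genes in brackets. Dashed lines are the shares over all protein-coding genes, 17.4% and 10.3%, and the insulin-like ligand list has no bar.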

How the data were processed

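Whole L4 worms of 1 group were assayed by ChIP-seq in 2 replicates. Per the deposited file descriptions, each replicate list was called by the authors from that replicate's alignment and a control, the pooled list from both, and the optimal list came from these 3. Which aligner and caller were used, in which versions and with which thresholds, is not given in the sources used here. Each region's signal, the −log10 q-value (2.92 for every optimal region, so not used) and the positions are as deposited by the authors. The ce10 lists were not used.

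Summits were assigned to genes of Ensembl release 115 (WBcel235, the ce11 assembly), and bases came from RefSeq, with Python 3.11.15 and pandas 2.3.3. Lists were compared by summits within 200 bp. Peak lists hold no reads, so no precision per value could be given, and replicate ranks stand in its place. The design has no contrast, so counts are set beside the share of all genes without a test. The named genes are the 10 members and up to 3 per further list with the highest signal within 500 bp of a start. Members and lists were chosen with earlier results of these data known. Gene assignment was tested on simulated summits.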

Additional observations from a re-analysis of the deposited data

How the results depend on the processing

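Of 30 alternative values, 25 were within 1.5 times the reported count. With the gene body left out and only 2 kb upstream kept, 4 genes had an optimal region in place of 7 (14.2% of all genes), and 5 regions in place of 12, because the intronic regions drop out. In the stronger 50% of the optimal list, 6 regions were left, and 2 genes, in place of 4, had a summit within 500 bp of a transcript start (5.66% of all genes). Within 250 bp there were also 2 genes, akt-1 and sir-2.1 (6.68%). With the strongest regions of a single replicate in place of the optimal list, the genes with a region numbered 7 in each case and were the same ones (17.1% of all genes without replicate 1 and 17.3% without replicate 2), and the regions numbered 11 to 12. Within 500 bp of a start, 3 genes were found with either replicate: daf-16 was lost without replicate 2 (10.2% of all genes) and akt-1 without replicate 1 (9.84%). All 10 genes had a region in each replicate's full list. No paired analysis was possible because the study has 1 group. The main limits are the unknown depth, the 2 replicates and the choice of gene for a region between neighbours.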

Other observations

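Region length moved with signal. The 3 strongest of the 12 regions, at aak-2 (283 bp), akt-2 (137 bp) and daf-16 (278 bp), were the only ones shorter than 300 bp, and the other 9 were 440 bp long. Among all 3423 nuclear optimal regions, 69.5% were 440 bp long. Of those with a signal over 150, 56.5% were shorter than 300 bp, against 4.19% of those at or below it. These limits were chosen after the values were seen. The length is set by the authors' caller and how it was chosen was not tested.

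Some further pathway genes carried several optimal regions, and those named here were also picked after their values were seen. More than 1 was found at 2.62% of all genes and at 5.41% of those with a window of at least 4.91 kb. The lengths of the genes named here were not taken into account. The TFEB gene hlh-30 had 5, with signals from 120.7 to 220.8, of which 4 lay in introns. The AMP-activated kinase gamma subunit gene aakg-1 had 3, all in introns and over 500 bp from its transcript starts, with signals of 190.4, 162.3 and 156.3. The folliculin gene flcn-1 also had several, with signals of 136.5, 88.7 and 75.7. The replicates disagreed about the region of signal 88.7, with rank 604 in replicate 1 and rank 5280 in replicate 2. The region of signal 75.7 had ranks of 3824 and 2441, and that of signal 136.5 had ranks of 1756 and 1074.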
